A study of Mus musculus with 18 samples.

Results

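The genes described here are 9 members of the Notch pathway: the ligands Jag1 and Jag2, the receptors Notch1, Notch2 and Notch3, and the target genes Hes1, Hey1, Hey2 and Heyl. They were chosen by symbol, and every probe set whose platform annotation gives 1 of these symbols alone was taken, which gave 17 of the 45101 probe sets on the array (9 of 18193 genes with a probe set of their own). Of these, 16 lay above the filter on low signal and were tested. The remaining 1, a Heyl probe set (1419303_at), had signals between 0.462 and 17.3 on the arrays used and was not tested. Where a gene had several probe sets, the one with the highest mean log2 signal represents it, and the others are given where they bear on a result.

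Notch signalling passes between touching cells: a Jagged or Delta ligand on one cell binds a Notch receptor on its neighbour, the receptor is cleaved by ADAM and gamma-secretase proteases, and its freed intracellular part joins the DNA-binding protein RBPJ to switch on genes such as those of the Hes and Hey families. The products of Hes and Hey genes are basic helix-loop-helix repressors. In the mouse ovary, Jag1 is known as a ligand gene of oocytes and Notch2 as a receptor gene of granulosa cells, while Notch1, Hey1 and Jag2 are also genes of blood vessels and Notch3 and Heyl of the smooth muscle cells and pericytes around them.

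RNA was measured on 18 Affymetrix mouse 430 2.0 arrays, 1 for each culture of preantral to small antral follicles. The follicles were dissected from ovaries of female C57BL/6Ntac mice aged 6 to 8 weeks, and no genotype differed between groups. The 6 groups of 3 cultures were given vehicle, 50 ng/mL or 200 ng/mL of anti-Müllerian hormone (AMH, a recombinant protein) for 24 h, or the same doses for 12 h, and all media, vehicle included, held 80 IU/L FSH and 10 IU/L LH. Follicles of 7 mice were pooled and divided over the 3 doses of 1 replicate at 1 time, so that there were 3 pools at each time, each made in an experiment of its own. AMH is a growth factor of the TGF-beta family made by granulosa cells of growing follicles, and the design asks how it changes their gene expression in culture. No uncultured follicles were analysed here, and a follicle culture holds oocytes, granulosa cells and whatever theca, vessel and stroma cells stayed attached. In such bulk samples, fewer cells of a type and less RNA per cell cannot be told apart.

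The follicle label was checked against marker genes. Of 11 granulosa cell markers tested, the inhibin subunit gene Inha had signals of 506 to 2814 and the AMH receptor gene Amhr2 446 to 1605, while Amh itself ranged from 1.54 to 221 and the FSH receptor gene Fshr from 1.48 to 213 on the 17 arrays used. None was at exactly 0. Oocyte markers were present on most arrays, with Zp3, a coat protein gene of the egg, at a median of 654.

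The replicate 3 array of AMH 50 ng/mL at 12 h differed from all others and is given separately. Its correlation with the other arrays was 0.604 to 0.624 on the log2 scale, against 0.904 to 0.992 among the other 17, and its bacterial hybridisation controls averaged 32128, against 1582 to 3879. Dose comparisons at AMH 50 ng/mL and 12 h therefore have AMH 50 ng/mL arrays of 2 pools. The vehicle and AMH 200 ng/mL arrays of the replicate 3 pool stayed in the fit and also moved these estimates. Notch1 at 50 ng/mL and 12 h, for example, differed by -0.06 (SE 0.41), or by 0.26 (SE 0.29) without that pool. From the same pool, the vehicle array had a summed signal of 12 endothelial markers of 5964.9, against 1145.3 to 2571.5 on the other 16 arrays, and poly-A spike controls reached 5451 on the array with 200 ng/mL of AMH. All values below are the authors' MAS5 signals, in arbitrary linear units, with every array scaled to a trimmed mean of 150. The median signal of an array was 18.1 to 36.6, and the lowest Notch3 and Hey2 signals lay below the median of their arrays. Differences are on the log2(signal + 16) scale, which understates the change of low signals, and the number of arrays limits their precision. A call needed a limma p, adjusted by Benjamini-Hochberg over 22518 probe sets, under 0.05.

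The promoters of Hey2 and Jag1 are shown because these 2 representatives had the largest vehicle differences between the culture times. Each is printed 5′ to 3′ on the gene's strand from RefSeq (GRCm38.p6), over 270 bases, of which 250 lie before the annotated start of the gene. Capitals mark TGGGAA, the core letters read by RBPJ, or its reverse complement TTCCCA. The Hey2 window is chr10:30842764-30843033 and the Jag1 window chr2:137116501-137116770, both on the minus strand.
Hey2: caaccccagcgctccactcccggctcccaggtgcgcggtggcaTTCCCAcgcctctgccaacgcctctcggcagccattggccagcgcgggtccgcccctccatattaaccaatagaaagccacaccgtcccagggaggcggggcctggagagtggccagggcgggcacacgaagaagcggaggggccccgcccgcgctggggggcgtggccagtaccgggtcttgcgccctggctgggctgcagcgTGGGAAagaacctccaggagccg
Jag1: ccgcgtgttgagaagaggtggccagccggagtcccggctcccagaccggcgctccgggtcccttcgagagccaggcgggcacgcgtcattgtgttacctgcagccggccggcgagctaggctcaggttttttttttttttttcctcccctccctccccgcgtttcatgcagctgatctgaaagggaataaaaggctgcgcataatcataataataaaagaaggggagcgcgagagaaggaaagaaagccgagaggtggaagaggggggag

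Promoters of 6 of the 9 genes were in the table used. Both strands were searched for 5 motifs: TGGGAA, its longer form GTGGGAA (every match of which is also a match of the shorter one), the GC-rich SMAD1/5 element GGCGCC, the N-box CACNAG of Hes proteins and the E-box CACGTG of Hey proteins. Hey2 held 2 matches of TGGGAA, both also matches of GTGGGAA. The first, on the opposite strand, lay 207 to 202 bases before the start, and the second spanned the start, from 3 bases before it to base 3. Over 32851 promoters searched the same way, 23.1% held TGGGAA and 5.75% held GTGGGAA. The Jag1 and Jag2 windows held none of the 5 motifs. The N-box, found in 39% of promoters, was matched 3 times in Notch1, 1 time in Notch2 and 2 times in Notch3, where 2 of the Notch1 matches spanned the start. GGCGCC (10.4% of promoters) and CACGTG (6.57%) were not in any of the 6 windows. These matches describe letters, not bound sites.

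Jag1, the ligand gene, gave lower signals in follicles cultured for 24 h than for 12 h. In vehicle, its signal after 24 h was 126, 315 and 167 in replicates 1 to 3, against 285, 404 and 359 after 12 h. The ranges overlapped, since replicate 2 at 24 h lay above replicate 1 at 12 h. Over all doses, Jag1 had a median of 160 (97.1 to 315, 9 arrays) at 24 h and 403 (224 to 573, 8 arrays) at 12 h. In the vehicle arrays alone, Jag1 differed by -0.82 (SE 0.31, limma adjusted p = 0.204), which did not pass. The other 2 Jag1 probe sets differed by -0.82 (1421105_at, adjusted p = 0.33) and -0.94 (1421106_at, adjusted p = 0.146).

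Hey2, a target gene of the Hes and Hey repressor family, lay higher at 24 h. Its vehicle signal was 235, 88.3 and 132 after 24 h, against 68.0, 29.8 and 17.6 after 12 h. The vehicle groups did not overlap, and the lowest of these values, 17.6, lay below the median signal of its array, 23.2. Over all doses Hey2 had a median of 132 (47.5 to 235) at 24 h and 37.5 (17.6 to 68.0) at 12 h, and here the ranges overlapped through the AMH 50 ng/mL array of replicate 1 at 24 h. The vehicle difference was 1.64 (SE 0.41, 95% interval 0.70 to 2.57, limma adjusted p = 0.0928), the smallest adjusted p of the 16 probe sets but not a call.

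The second ligand gene and the classical target Hes1 lay lower at 24 h. Jag2 had 40.2, 66.7 and 60.6 in vehicle after 24 h and 96.4, 97.6 and 74.2 after 12 h. Hes1, a repressor gene switched on quickly by Notch, had 67.3, 85.1 and 71.7 in vehicle after 24 h and 103, 126 and 123 after 12 h. Neither gene's vehicle groups overlapped. Jag2 differed by -0.57 (SE 0.23, adjusted p = 0.24) and Hes1 by -0.56 (SE 0.20, adjusted p = 0.19), so that neither passed. Over all doses, Jag2 was the one representative whose ranges did not overlap, at 31.4 to 71.9 on the 9 arrays of 24 h and 74.2 to 108 on the 8 arrays of 12 h, as 2.91% of all probe sets were lower without overlap. The Hes1 ranges were 61.9 to 85.1 and 59.1 to 138, with only the AMH 200 ng/mL array of replicate 3 at 12 h below the arrays of 24 h.

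**Figure D1:**
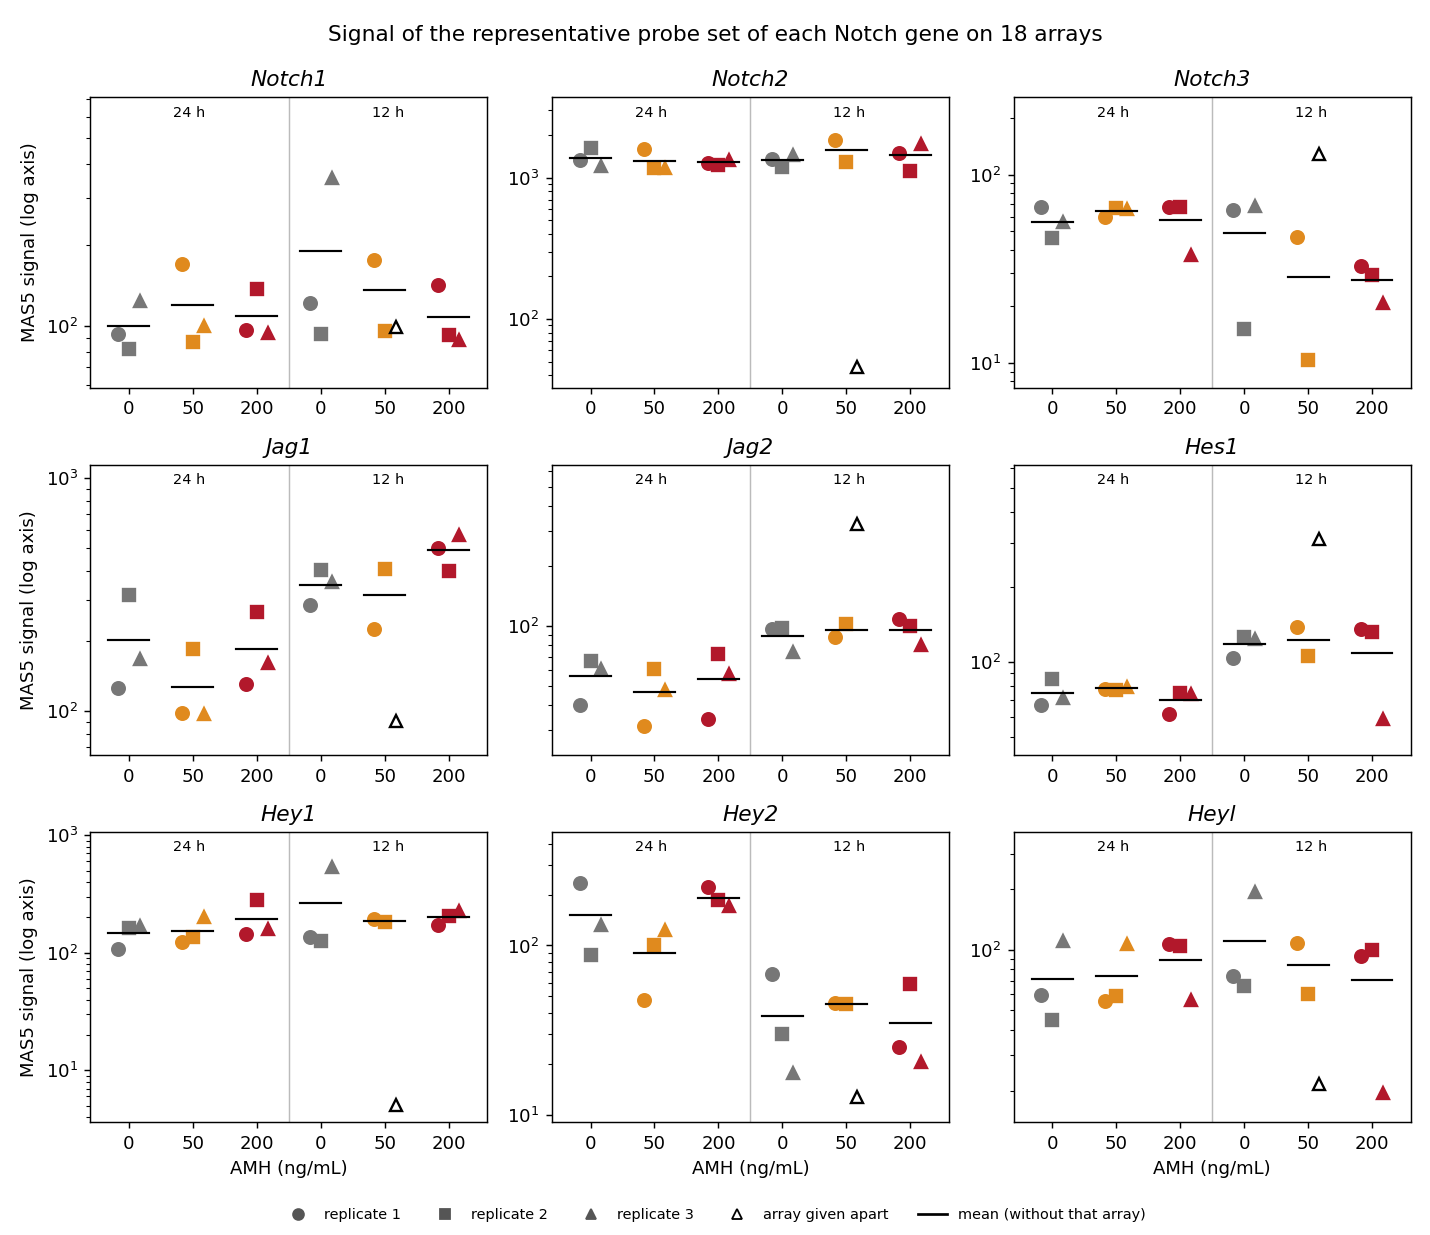
MAS5 signal (log axis) of the representative probe set of each of the 9 Notch genes on every array, by AMH dose (ng/mL) within 24 h and 12 h. Symbols mark the replicate, lines the group means without the open triangle, which is the array given apart. Jag1 and Jag2 sit lower and Hey2 higher at 24 h than at 12 h, while Notch2 stays between 1107 and 1852 on the 17 other arrays.

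None of the receptor genes passed between the times. Notch2 had 1329, 1622 and 1210 in vehicle after 24 h and 1358, 1192 and 1454 after 12 h, a difference of 0.05 (SE 0.15, 95% interval -0.30 to 0.39). Notch1, known in vessels, had 93.1, 82.1 and 124 in vehicle at 24 h and 121, 93.0 and 355 at 12 h, a difference of -0.63 (SE 0.42, adjusted p = 0.475), or of -0.10 (SE 0.25) without the 12 h array of replicate 3. Its highest value, and those of Hey1 and Heyl, came from the 12 h vehicle array of replicate 3, which also had the highest endothelial sum. Notch3, read by a probe set whose name (_s_at) marks probes shared with other transcripts, had 67.1, 46.1 and 56.0 at 24 h and 64.9, 15.2 and 67.9 at 12 h, a difference of 0.27 (SE 0.38), or of 0.52 (SE 0.37) without that array. The further probe sets differed by -0.79 for Notch1 (1418633_at, SE 0.42, or -0.25 without that array), by -0.30 for Notch2 (1451889_at, SE 0.17) and by 0.77 for Notch3 (1421964_at, SE 0.41), none past the threshold.

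Hey1 and Heyl, the remaining targets, were highest on that same array. In vehicle, Hey1 had 108, 163 and 169 after 24 h and 135, 126 and 536 after 12 h, and differed by -0.51 (SE 0.48), or by 0.13 (SE 0.24) without the 12 h array of replicate 3. Heyl had 59.3, 44.5 and 111 after 24 h and 73.6, 65.9 and 192 after 12 h, a difference of -0.47 (SE 0.41), or of -0.04 (SE 0.32) without that array. The tested further probe set of Heyl (1438886_at) differed by -0.36 (SE 0.35), or by -0.08 without that array. For both genes the groups overlapped.

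In this comparison of times, 0 of the 16 Notch probe sets were called, against 1.09% of all probe sets tested (246, of which 169 were higher and 77 lower at 24 h). An unadjusted p under 0.05 was reached by 5 of the 16 probe sets, among them 4 of the 9 representatives (Jag1, Jag2, Hes1 and Hey2), against 18.5% of all probe sets. The vehicle groups did not overlap for 5 of the 17 probe sets, namely Jag2, Hes1 and Hey2 and 1 further probe set each of Jag1 and Notch1, against 25.0% of all probe sets tested. The representatives had a median difference of -0.51, with 3 of 9 higher, against 0.01 for all probe sets. That median is the value of Hey1 and rests on the 12 h vehicle array of replicate 3. Without that array Hey1 differed by 0.13, Notch1 by -0.10 and Heyl by -0.04. Jag1 (-0.80), Jag2 (-0.67) and Hes1 (-0.53) stayed lower at 24 h, while Notch2 (0.11), Notch3 (0.52) and Hey2 (1.34) stayed higher. When changes were simulated with the spread of the 6 vehicle arrays, 25% of probe sets altered by a log2 change of 1 were called and 81% of those altered by 2. These were drawn at random from all probe sets tested, whose median SE was 0.22. The SE of the Notch representatives ran from 0.15 (Notch2) to 0.48 (Hey1), and only Notch2 and Hes1 lay below that median.

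Same-numbered vehicle arrays of the 2 times deviated together, so that the fit with the replicate number as a block stands beside this one. The block was read from the values of the same 6 vehicle arrays and is not stated in the labels. With the block, 629 probe sets were called and Hey2 passed (1.64, SE 0.24, adjusted p = 0.0284), while Jag1 did not (-0.82, SE 0.21, adjusted p = 0.087). No other representative passed. With the spread of all 17 arrays in place of the 6 vehicle arrays, Hey2 also passed (SE 0.39, adjusted p = 0.0348), and 676 probe sets were called. That fit counts arrays of 1 pool as separate although they deviated together. Its precision for a comparison between pools is therefore overstated.

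A further fit, chosen after the data were seen, used the mean log2 value of each pool over its doses, 3 pools against 3. The mean of the 12 h pool of replicate 3 was over 2 arrays, without the array given apart, and was weighted like the others. This fit called 11.5% of the probe sets tested (2597, of which 1701 were higher and 896 lower at 24 h), and 3 of the 16 Notch probe sets. Hey2 rose (1.58, SE 0.24, adjusted p = 0.00867), with pool means of 7.28, 7.07 and 7.29 at 24 h and 5.90, 5.89 and 5.13 at 12 h on the log2 scale. Jag1 fell (-1.20, SE 0.27, adjusted p = 0.0277), with pool means of 7.06, 8.05 and 7.27 at 24 h and 8.39, 8.71 and 8.88 at 12 h, and a second Jag1 probe set (1421106_at) fell by 1.13 (adjusted p = 0.0444). The third had -0.93 (adjusted p = 0.0767). Jag2 had -0.68 (SE 0.22, adjusted p = 0.0856), Notch3 0.61 (SE 0.25, adjusted p = 0.15) and Hes1 -0.47 (SE 0.19, adjusted p = 0.139), none past the threshold. With each pool left out in turn, the adjusted p of Hey2 was 0.00111 to 0.0563 and that of Jag1 0.0218 to 0.121. Hey2 lost its call without replicate 1 or 3 at 24 h, and Jag1 without replicate 1 or 3 at 24 h or replicate 2 at 12 h. Without replicate 3 at 12 h, Hes1 (-0.62, adjusted p = 0.0202) and Jag2 (-0.78, adjusted p = 0.0321) passed as well. That fit called 4369 of the 22518 probe sets tested, against 2597 with all pools.

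**Figure D2:**
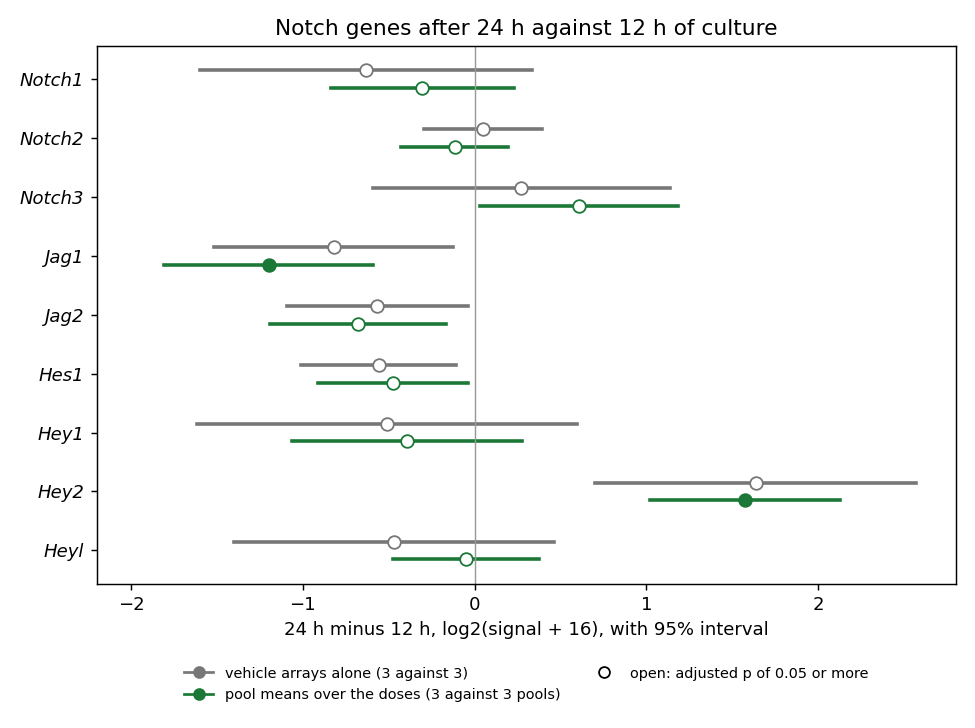
Difference between 24 h and 12 h (log2(signal + 16)) for each Notch gene, with its 95% interval, from the vehicle arrays alone and from pool means over the doses, 3 against 3 in each. Filled points passed the threshold: Hey2 at 1.58 and Jag1 at -1.20 in the pool means, and none in the vehicle arrays.

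Markers of cell types also differed between the times. Of the 11 granulosa markers, 10 were higher at 24 h in vehicle (median 1.05, 2 called), and their summed signal was 8262.4 to 8764.1 at 24 h and 2583.5 to 5677.3 at 12 h. Of the 11 endothelial markers tested, 10 were lower at 24 h (median -0.66, 0 called), with sums of 1145.3 to 2483.9 at 24 h and 1597.6 to 5964.9 at 12 h. Of the 12 oocyte markers tested, 10 were higher at 24 h (median 0.10, 0 called). The oocyte sums overlapped widely, at 1731.4 to 7525.7 at 24 h and 579.2 to 10138.6 at 12 h. Among the other lists, 7 of 9 surface epithelium markers (median 0.51, 1 called), 7 of 9 leukocyte markers (median 0.32, 1 called) and 5 of 6 theca markers (median 0.39, 0 called) were higher at 24 h, and 6 of 8 mural cell markers were lower (median -0.34, 0 called). The part of these shifts in the values of Jag1, Hey2 and the other Notch genes was not tested. Each pool was cultured for 1 time only, so the time of culture and the experiment cannot be told apart for any single pool.

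**Figure D3:**
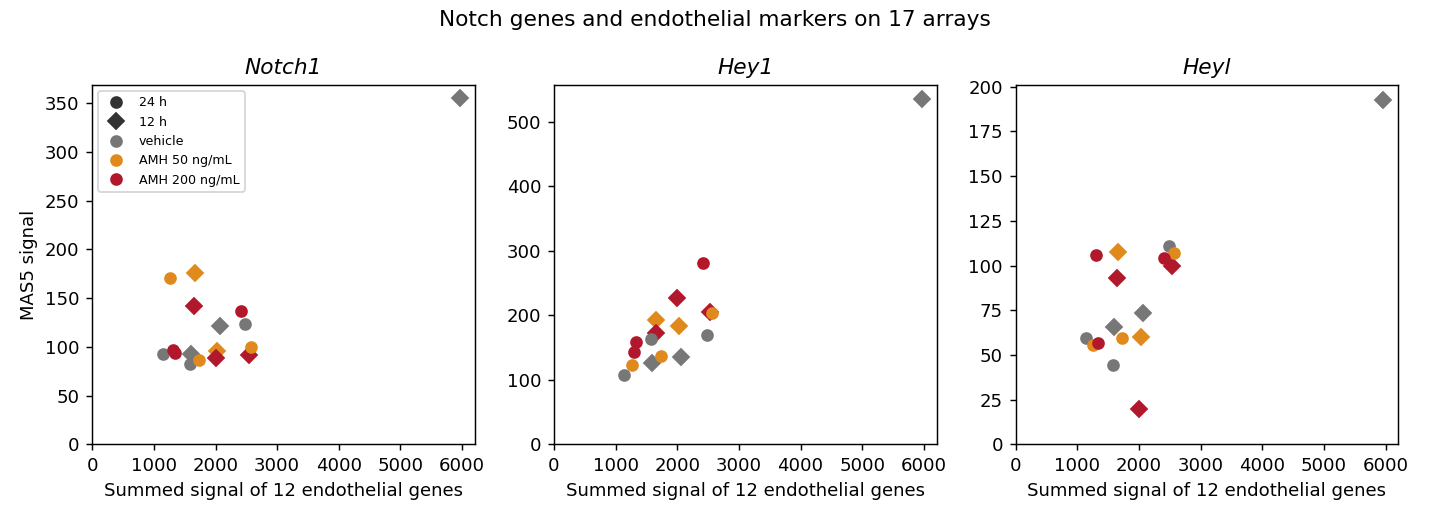
MAS5 signals of Notch genes against the summed signal of 12 endothelial markers on 17 arrays, with the dose shown by colour and the time by symbol. The 12 h vehicle array of replicate 3, at a sum of 5964.9, carries the highest Notch1 (355), Hey1 (536) and Heyl (192) signals. It also has the highest mural sum (4191.7) and the lowest oocyte sum (579.2) of the 17 arrays.

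AMH against vehicle was compared within pools, at each dose and time, to ask whether the hormone altered Notch gene levels. None of the 16 Notch probe sets was called in any of the 8 dose comparisons, where 0% of all probe sets were called. At an unadjusted p under 0.05, 0 of the 16 stood with 200 ng/mL at 24 h and 0 with 50 ng/mL at 12 h, against 1.68% and 5.69% of all probe sets, and 764 to 1061 probe sets reached it over both times. The comparisons of 50 and of 200 ng/mL share their vehicle arrays. In simulated data for 200 ng/mL at 24 h, 52% of probe sets altered by a log2 change of 1 were called and 91% of those altered by 2. These were drawn at random from all probe sets tested, whose median SE was 0.20. The SE was 0.15 for Notch2, 0.17 for Jag2, 0.19 for Jag1, 0.23 for Hes1 and 0.30 to 0.50 for the other members. The shares are therefore not those of the Notch genes, and are too high for members with a larger SE.

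Jag1 was the member with the smallest unadjusted p at 50 ng/mL and 24 h. Its signal with AMH 50 ng/mL was 98.0, 186 and 97.1 in replicates 1 to 3, against 126, 315 and 167 in vehicle. It was lower in 3 of 3 pools, as were 12.2% of all probe sets. The difference was -0.58 (SE 0.19, 95% interval -0.99 to -0.16, limma unadjusted p = 0.0104, adjusted p = 1), and an unadjusted p under 0.05 was reached by 2 of the 16 Notch probe sets against 2.69% of all. At 12 h, Jag1 had 224 and 407 with 50 ng/mL in replicates 1 and 2, against 285 and 404 in vehicle. Over both times it differed by -0.34 (SE 0.15, adjusted p = 1), and the probe set 1421106_at by -0.53 (SE 0.17, unadjusted p = 0.00824, adjusted p = 0.72), lower in 5 of 5 pools, as were 4.61% of all probe sets. An unadjusted p under 0.05 was reached over both times by 3 Notch probe sets, all of Jag1, against 4.71% of all.

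Oocyte markers stood lower with 50 ng/mL in the same arrays. All 12 tested were lower at 24 h (median -0.97) and at 12 h (median -0.87), with 0 called. Their summed signal at 24 h was 1075.9 to 4477 with 50 ng/mL and 1731.4 to 7525.7 in vehicle. In vehicle replicates 1 to 3 at 24 h, the sums were 1731.4, 7525.7 and 3713.8, where Jag1 had 126, 315 and 167. At 12 h the vehicle sums were 5277.6, 10138.6 and 579.2, where Jag1 had 285, 404 and 359. The order of Jag1 followed that of the sums at 24 h but not at 12 h. At 24 h, 9 of 9 leukocyte markers (median -0.71), 9 of 9 surface epithelium markers (median -0.74) and 10 of 11 granulosa markers (median -0.19) were also lower with 50 ng/mL, with 0 called. With 200 ng/mL at 24 h, where Jag1 differed by -0.08 (SE 0.19), 9 of 9 leukocyte markers (median -0.94) and 9 of 9 surface epithelium markers (median -0.71) were lower as well. There, 6 of 12 oocyte and 4 of 11 granulosa markers were lower. The part of these markers in the Jag1 difference at 50 ng/mL was not tested.

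With 200 ng/mL, Jag1 had 130, 266 and 160 at 24 h, close to vehicle (-0.08, SE 0.19), and 500, 402 and 573 at 12 h, against 285, 404 and 359 in vehicle. The 12 h difference was 0.47 (SE 0.19, 95% interval 0.06 to 0.89, unadjusted p = 0.0285, adjusted p = 0.432). It came from replicates 1 and 3, at 0.77 and 0.65, with -0.01 in replicate 2, and was 0.38 (SE 0.22) without the pool of replicate 3. The other Jag1 probe sets differed less, by 0.23 (1421105_at, SE 0.27) and 0.21 (1421106_at, SE 0.22). In the same comparison, 9 of 9 surface epithelium markers were higher (median 0.58, 0 called), and their sum in replicate 3 was 10888.8 with 200 ng/mL and 3773.5 in vehicle. With 50 ng/mL at 12 h, where Jag1 differed by -0.11 (SE 0.22), 9 of 9 were higher as well (median 0.44, 0 called). The part of these markers in the Jag1 difference at 200 ng/mL was not tested. With 200 ng/mL at 12 h, 2 of the 16 probe sets (Jag1 and the second of Notch2) had an unadjusted p under 0.05, against 11.4% of all. The effect of 200 ng/mL at 24 h minus that at 12 h was -0.55 for Jag1 (SE 0.27, limma adjusted p = 0.627), and none of the 16 probe sets passed this test or had an unadjusted p under 0.05 in it, against 7.19% of all with such a p. In the direct comparison of the doses at 24 h, Jag1 was higher with 200 than with 50 ng/mL by 0.49 (SE 0.19, unadjusted p = 0.0231, adjusted p = 0.999), with 0.36, 0.48 and 0.64 in the 3 pools. In all, 17.4% of probe sets were higher in every pool of that comparison. Of the oocyte markers, 12 of 12 were also higher with 200 than with 50 ng/mL (median 1.00, 0 called).

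Jag2, the second ligand gene, had 40.2, 66.7 and 60.6 in vehicle, 31.4, 60.4 and 47.8 with 50 ng/mL and 34.2, 71.9 and 57.0 with 200 ng/mL at 24 h. The differences were -0.21 (SE 0.17) with 50 ng/mL and -0.05 (SE 0.17) with 200 ng/mL. Its dimmer probe set (1426430_at) was higher in 6 of 6 pools with 200 ng/mL, as were 0.848% of all probe sets, with a difference over both times of 0.26 (SE 0.17, adjusted p = 0.951). The representative of Jag2 was higher in 4 of these 6 pools (0.02, SE 0.12).

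Of the receptor genes, Notch2 gave differing answers from its probe sets. With 200 ng/mL, 1455556_at had 1277, 1237 and 1343 at 24 h, against 1329, 1622 and 1210 in vehicle, and 1487, 1107 and 1743 at 12 h, against 1358, 1192 and 1454. Over both times this representative differed by -0.00 (SE 0.11, 95% interval -0.23 to 0.23). The second probe set, 1451889_at, had 196, 160 and 221 with 200 ng/mL at 24 h, against 224, 267 and 225 in vehicle, and 202, 162 and 235 at 12 h, against 323, 258 and 315. It was lower in 6 of 6 pools, as were 1.42% of all probe sets, and differed by -0.42 (SE 0.12, 95% interval -0.68 to -0.17, unadjusted p = 0.00356, adjusted p = 0.951). It was the 1 Notch probe set of 16 with an unadjusted p under 0.05 over both times at 200 ng/mL, where 3.39% of all had one. The groups did not overlap at 24 h or at 12 h for this probe set, as 2.94% of all probe sets were lower without overlap at 24 h and 2.58% at 12 h.

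Notch1 and Notch3 did not pass at either dose. Notch1 with 200 ng/mL had 96.6, 136 and 94.1 at 24 h, against 93.1, 82.1 and 124 in vehicle (0.11, SE 0.35). At 12 h it had 142, 92.0 and 88.2 with 200 ng/mL, against 121, 93.0 and 355 in vehicle, a difference of -0.55 (SE 0.35) that became 0.09 (SE 0.29) without replicate 3. Notch3 with 200 ng/mL had 67.2, 67.3 and 37.3 at 24 h (-0.00, SE 0.30) and 32.7, 29.3 and 20.8 at 12 h, against 64.9, 15.2 and 67.9 in 12 h vehicle, a difference of -0.46 (SE 0.30) that became -0.10 (SE 0.31) without replicate 3.

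Among the targets, Hey2 at 24 h had 235, 88.3 and 132 in vehicle, 47.5, 100 and 124 with 50 ng/mL and 221, 185 and 171 with 200 ng/mL. The 2 dosed groups did not overlap each other, as 5.72% of all probe sets were higher with 200 than with 50 ng/mL without overlap, whereas each overlapped vehicle. Against vehicle, Hey2 differed by -0.63 (SE 0.38) with 50 ng/mL and by 0.40 (SE 0.38) with 200 ng/mL. The first value came from replicate 1, at -1.99 where replicates 2 and 3 had 0.16 and -0.07, and was 0.04 without it. Hey2 was higher with 200 than with 50 ng/mL by 1.03 (SE 0.38, 95% interval 0.21 to 1.86, limma unadjusted p = 0.0183, adjusted p = 0.999), at 1.90, 0.79 and 0.41 in the 3 pools. An unadjusted p under 0.05 was reached there by 3 Notch probe sets, those of Hey2, Jag1 and the second of Notch2, against 4.16% of all probe sets.

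At 12 h the Hey2 signals were low and showed no order by dose, with 68.0, 29.8 and 17.6 in vehicle, 45.4 and 45.2 with 50 ng/mL and 25.2, 59.2 and 20.6 with 200 ng/mL. By group mean, Hey2 ordered as 192 ± 25.6 with 200 ng/mL at 24 h, 152 ± 75.6 in vehicle at 24 h and 90.7 ± 39.3 with 50 ng/mL at 24 h (SD, n = 3 each). The 12 h groups followed at 45.3 ± 0.128 with 50 ng/mL (SD, n = 2), 38.4 ± 26.3 in vehicle and 35.0 ± 21.1 with 200 ng/mL (SD, n = 3 each). Neighbouring groups in that order did not differ beyond their spread, except at the step between the times, where the ranges of 50 ng/mL at 24 h and at 12 h did not overlap, with 20.7% of all probe sets higher at 24 h without overlap there.

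Jag1 ordered, lowest first, as 127 ± 50.9 with 50 ng/mL, 185 ± 70.9 with 200 ng/mL and 203 ± 99.2 in vehicle at 24 h (SD, n = 3 each). The 12 h groups followed at 316 ± 129 with 50 ng/mL (SD, n = 2), 349 ± 59.8 in vehicle and 492 ± 86.2 with 200 ng/mL (SD, n = 3 each), and all neighbouring groups overlapped in range. For Hes1 the order was 70.3 ± 7.34 with 200 ng/mL, 74.7 ± 9.29 in vehicle and 78.2 ± 1.03 with 50 ng/mL at 24 h (SD, n = 3 each). At 12 h it was 109 ± 43.2 with 200 ng/mL, 117 ± 12.5 in vehicle (SD, n = 3 each) and 122 ± 23.1 with 50 ng/mL (SD, n = 2), and neighbouring groups again overlapped. Hes1 differed from vehicle by -0.16 to 0.06 over the doses and times (SE 0.23 to 0.27).

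Hey1 and Heyl, which vessels and their mural cells are known to express, showed wide pool differences. With 200 ng/mL at 24 h, Hey1 had 144, 282 and 158, against 108, 163 and 169 in vehicle (0.34, SE 0.30), and Heyl had 106, 104 and 56.5, against 59.3, 44.5 and 111 (0.29, SE 0.50). At 12 h, Hey1 had 173, 205 and 227 with 200 ng/mL, against 135, 126 and 536 in vehicle (-0.07, SE 0.30, or 0.48 without replicate 3). Heyl had 93.2, 99.8 and 19.5 with 200 ng/mL at 12 h, against 73.6, 65.9 and 192 in vehicle, a difference of -0.59 (SE 0.50) that became 0.39 (SE 0.37) without replicate 3. The further Heyl probe set (1438886_at) differed by -0.81 (SE 0.43, adjusted p = 0.449), or by -0.06 (SE 0.37) without it. In that pool Heyl differed by -2.55, Notch1 by -1.83 and Hey1 by -1.18, and the endothelial sum was 2000.4 with 200 ng/mL and 5964.9 in vehicle. Its 200 ng/mL array had the lowest median correlation (0.919), the lowest median signal (18.1) and the highest hybridisation controls (3879) of the 17 arrays. In the other 2 pools of 12 h Heyl differed by 0.28 and 0.50 and Hey1 by 0.32 and 0.64. The part of endothelial markers and of array quality in these differences was not tested.

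**Figure D4:**
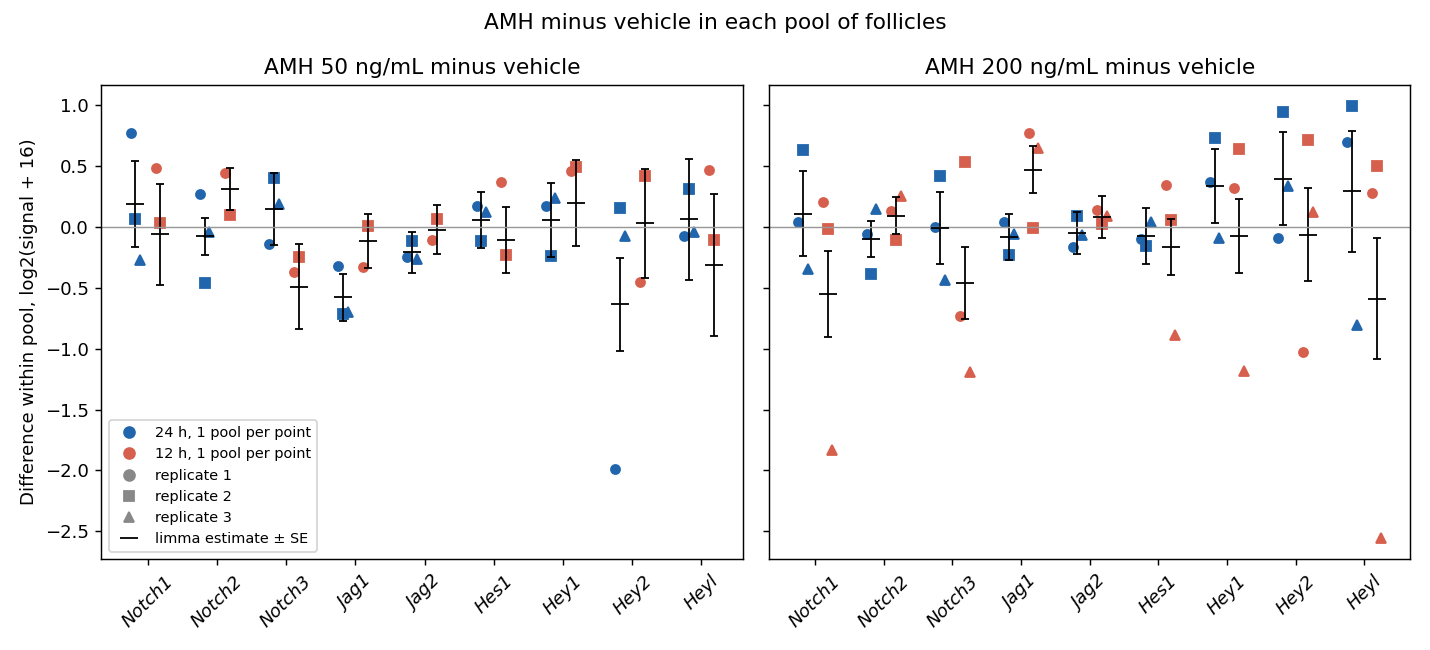
Differences of AMH 50 (left) and 200 ng/mL (right) from vehicle on the log2(signal + 16) scale, 1 point for each pool, for the 9 Notch genes, with the limma estimate and its SE. Jag1 at 50 ng/mL and 24 h lies below 0 in all 3 pools (-0.32, -0.71 and -0.70), and at 200 ng/mL the 12 h pool of replicate 3 holds the lowest Heyl and Notch1 points.

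The array given apart, AMH 50 ng/mL at 12 h in replicate 3, gave Notch signals both far below and far above those of the other arrays. It had a Notch2 signal of 45.7, Hey1 of 5.07, Jag1 of 90.8 and Notch1 of 99.2, and in contrast Jag2 of 325, Hes1 of 310 and Notch3 of 129. The Jag1 probe sets disagreed on it, with 232 (1421105_at) and 594 (1421106_at). With it in the fit, the Notch2 difference at 50 ng/mL and 12 h was -1.34 (SE 0.83), and 0.31 (SE 0.18) without it.

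The other genes of the pathway were followed from a list of 40, of which 36 were on the array under 1 symbol and 29 were tested. None of the 29 was called in the 9 comparisons. With 200 ng/mL at 12 h, 24 of 29 were lower (median -0.33, against -0.08 for all probe sets), and with 50 ng/mL at 12 h also 24 of 29 (median -0.24, against -0.05). Without the 12 h pool of replicate 3, 18 of 29 were lower with 200 ng/mL (median -0.07, against -0.00) and 20 of 29 with 50 ng/mL (median -0.12, against -0.01). These 2 comparisons share their vehicle arrays. Ncstn, which codes for the gamma-secretase subunit nicastrin, had 393, 556 and 241 with 200 ng/mL at 12 h, against 570, 689 and 515 in vehicle. The difference was -0.62 (SE 0.14, limma unadjusted p = 0.000647, adjusted p = 0.432), or -0.41 (SE 0.12) without replicate 3. Adam17, a protease gene for the first cleavage of the receptor, had -0.57 (SE 0.20), or -0.23 (SE 0.17) without replicate 3. Dtx3, a Deltex ubiquitin ligase gene, had -1.01 (SE 0.36), or -0.25 (SE 0.23) without replicate 3. RBPJ's own gene, Rbpj, had -0.51 (SE 0.26) there, or 0.04 (SE 0.16) without replicate 3, and 0.21 (SE 0.26) with 200 ng/mL at 24 h. An unadjusted p under 0.05 was reached by 3 of these 29 genes at 200 ng/mL and 12 h, against 11.4% of all probe sets. Without replicate 3 it was reached by 2 of the 29, and the share of all probe sets in that fit is not given here.

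At 24 h, 21 of the 29 were higher with 200 ng/mL (median 0.06) and 17 with 50 ng/mL (median 0.04), against medians of 0.01 and -0.01 for all probe sets. Between the times in vehicle, 11 were higher and 18 lower at 24 h (median -0.12). The smallest unadjusted p values were those of Spen, a corepressor gene, at -0.49 (SE 0.21, or -0.33 without the 12 h array of replicate 3), Mfng, a glycosyltransferase gene that modifies Notch receptors, at -0.83 (SE 0.35, or -0.48 without that array), and Numbl, a gene related to the Notch inhibitor Numb, at -0.51 (SE 0.22, and the same without that array). In the pool means over the doses, 2 of the 29 rose and 0 fell: the gamma-secretase subunit gene Aph1b (0.85, SE 0.18, adjusted p = 0.0262) and the acetyltransferase gene Kat2b (0.54, SE 0.12, adjusted p = 0.0257). In all, 11.5% of probe sets were called there, 1701 higher and 896 lower. With 1 pool left out, neither gene passed without replicate 1, 2 or 3 of 24 h (adjusted p = 0.1 to 0.128), and Aph1b did not without replicate 2 of 12 h (adjusted p = 0.0543).

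Across the 17 arrays, the members shared patterns unevenly. Jag1 and Jag2 correlated at r = 0.87, Jag2 and Hes1 at 0.723, Notch1 and Hey1 at 0.649 and Notch1 and Heyl at 0.64, whereas Jag1 and Hey2 correlated at -0.696. These 17 arrays share pools and times, so the coefficients describe these arrays only. Among 11212 other genes, Hey2 was most like Hpgd (r = 0.958), which codes for a prostaglandin-inactivating enzyme, and Esr2 (0.942), the gene of estrogen receptor beta and 1 of the granulosa markers. Jag1 was most like Oser1 (0.954) and Spint1 (0.946), a protease inhibitor gene, Jag2 like Jpt2 (0.916) and C430002N11Rik (0.914), and Hes1 like Gfer (0.931) and Nup93 (0.918). Hey1 was most like Btnl9 (0.909) and Ralgds (0.868), Heyl like Tpst1 (0.885) and Ldlrad3 (0.863), and Notch1 like Hic1 (0.855) and Ppp1r18 (0.841). Notch2 was most like Fkbp2 (0.865) and Pafah1b2 (0.86). Notch3 was most like Rab13 (0.9) and Pofut1 (0.896), which codes for the enzyme that adds O-fucose to Notch receptors.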

How the data were processed

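Total RNA of the 18 cultures (5 ng each) was amplified, biotin-labelled and hybridised to 1 array each, per the labels' protocols. The deposited table holds 1 signal intensity per probe set and array on a linear scale, which the authors computed with MAS5, per the submitters' processing notes (version not given in the sources used here). The 2% trimmed mean of every array was 150. The values were used as deposited, without further normalization, as log2(signal + 16). The platform annotation gave 1 symbol to 34945 of 45037 probe sets other than 64 controls, several to 932 and none to 9160. Tests covered the 22518 probe sets whose mean log2 signal exceeded the 50th percentile.

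The sample descriptions of the 12 h AMH cultures give 24 h, whereas titles and source give 12 h, which was used. Dose comparisons were 1 limma fit of 17 arrays (lmFit and trended eBayes in limma 3.58.1, R 4.3.3) with the pool as a block. The pairing comes from the labels' protocols, and arrays of 1 pool deviated together (median r = 0.25, 0.0672 to 0.495). Between pools the median was -0.128 (-0.408 to 0.161), so the ranges overlapped. Times were compared on the 6 vehicle arrays without a block. Same-numbered vehicle arrays came from different pools, and their deviations correlated at 0.317, 0.261 and 0.206, against -0.207 to -0.0275 between other numbers, so the blocked fit is given too. Deviations from a group mean cancel out, so positive values for some pairs force negative ones for others. The contrast with other numbers is therefore no separate evidence of a pairing. This pairing is read from the values of the same arrays, not stated in the labels. Tests were two-sided, adjusted by Benjamini-Hochberg over all probe sets tested, at 0.05. Both fits were tested on simulated data (22518 probe sets each).

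Named genes were the 9 members, each represented by its probe set with the highest mean. Other pathway genes were named when they passed, or as at most the 3 with the smallest unadjusted p, and the 2 genes with the highest Pearson r were named for each member. Rbpj was named in addition, after its values were seen. Cell type markers were granulosa, oocyte, endothelial, mural, theca, leukocyte and surface epithelium lists. Members and lists were chosen with earlier results of these data known. Alternatives changed the pseudocount (1 or 50), filter, trend, normalization (quantile), block, arrays and probe set, and left out each pool in turn. Pool means over the doses were added after the data were seen. Scanner files were not used here. Figures were drawn with matplotlib 3.10.9.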

Additional observations from a re-analysis of the deposited data

Results flagged for a closer look

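On the array given apart (AMH 50 ng/mL, 12 h, replicate 3), 3 representative probe sets lay above every 12 h vehicle array: Notch3 at a signal of 129, Jag2 at 325 and Hes1 at 310. The vehicle arrays of 12 h had 15.2 to 67.9 for Notch3, 74.2 to 97.6 for Jag2 and 103 to 126 for Hes1.

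The untested Heyl probe set 1419303_at was lower with AMH 50 ng/mL than in vehicle in all 3 pools of 24 h and higher in both pools of 12 h, and its mean difference at 24 h minus that at 12 h was -0.40 on the log2 scale. This difference between times was not tested, and its signals of 0.462 to 17.3 lay below the filter.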

How the results depend on the processing

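With a count of 0 probe sets called in each dose comparison as reported, leaving out 1 pool in turn gave 0 to 2 for 200 ng/mL and 0 to 1 for 50 ng/mL over both times, 0 to 225 for 200 ng/mL at 12 h (225 without replicate 2) and 0 to 4 for 50 ng/mL at 12 h. The fit without an intensity trend called 1 at 50 ng/mL over both times, and the arrays of 24 h alone called 1 at 50 ng/mL and 24 h. Without the replicate block, 0 were called in each dose comparison. For the times (246), a pseudocount of 1 gave 151, no filter 60, a filter at the 75th percentile 65, the replicate block 629 and all 17 arrays 676. Leaving out 1 vehicle array gave 0 to 461, with 0 without the 24 h array of replicate 2 or 3, 1 without replicate 1, 35 without the 12 h array of replicate 2 and 461 without replicate 3. Pool means over the doses gave 2597. Without 1 pool they gave 379, 612 and 428 (24 h replicates 1, 2 and 3) and 3201, 1776 and 4369 (12 h replicates 1, 2 and 3). Of 1115 member values under other settings, 105 changed sign, of which 90 had an estimate within its SE as reported, such as Notch1 (0.10), Hes1 (0.066) and Heyl (0.34) at 200 ng/mL over both times without replicate 3 of 12 h, and Hey1 at 50 ng/mL and 12 h with all 18 arrays (-1.25). The other 15 follow. At 50 ng/mL over both times, Notch2 was -0.71 with all 18 arrays and -0.050 with its second probe set, and Hey2 was -0.50 to 0.035 with pools left out. At 50 ng/mL and 24 h, Hey2 was -1.03 to 0.041 with pools left out. At 50 ng/mL and 12 h, all 18 arrays gave -1.34 for Notch2 and 0.059 for Notch3, and the second probe sets -0.21 and 0.053. At 200 ng/mL and 12 h, leaving out pools gave -0.92 to 0.095 for Notch1 and -1.13 to 0.39 for Heyl, with both highest values without replicate 3. The effect at 24 h minus 12 h was -0.098 to 1.43 for Heyl with pools left out and -0.065 for the second Notch1 probe set. Between the times, Hey1 was -0.85 to 0.13 with vehicle arrays left out, and Heyl was 0.044 and 0.024 in pool means without replicate 1 at 12 h or replicate 2 at 24 h. The cause was not tested. No Notch gene passed in a dose comparison under the settings tried. Low signals limit Notch3 and Hey2, whose lowest values lay below the median of their arrays, and the untested Heyl probe set, whose values (0.462 to 17.3) lay below every array's median (18.1 to 36.6).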
